A study of Mus musculus with 6 samples.

Results

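The 10 genes described here are Cdh1, Cdh2, Cdh3, Cdh4, Cdh5, Cdh6, Cdh11, Cdh13, Cdh16 and Cdh17, a listed set of classical and related cadherins among 56953 genes counted in 6 mouse pancreatic ductal adenocarcinoma (PDAC) cell lines. The list was given by name, and all 10 symbols matched 1 Ensembl gene each. The lines, KPC142, KPC180, KPC469, KPC490, KPC630 and KPC850, were derived from pancreatic adenocarcinoma of KPC mice, a genetically engineered model of pancreatic cancer. The labels name the strain as KPC and give no alleles, passage, sex, age, clone, treatment or batch. Each line was sequenced once as a poly(A) library, so no value has a replicate and no line could be tested against another with the spread between replicates. The study concerns how strongly tumours of such lines draw CD8+ T cells, and no infiltration class is used here because none is labelled.

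Cadherins are calcium-dependent adhesion proteins of the cell surface. Type I classical cadherins (Cdh1, Cdh2, Cdh3 and Cdh4) and type II cadherins (Cdh5, Cdh6 and Cdh11) bind partners on neighbouring cells with the outermost domain and hold catenins, and through them actin, with the cytoplasmic tail. T-cadherin (Cdh13) has no such tail and is held by a lipid anchor, and the 7D cadherins (Cdh16 and Cdh17) have extra outer domains and a short tail that does not bind catenins. E-cadherin (Cdh1) is the usual cadherin of epithelium, and N-cadherin (Cdh2) is often found in mesenchymal and neural cells.

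The coding sequence separates these classes at the point where the pro-peptide is cut away. The bases below, read 5′ to 3′ from the longest protein-coding transcripts in GENCODE M21 (GRCm38), begin with the codons of the first match to arginine, any residue, arginine or lysine, and arginine, and continue with the next 8 codons. Capitals mark TGG, the codon of the tryptophan that type I and type II cadherins insert into the partner molecule. Cdh1, Cdh3, Cdh6 and Cdh13 are shown because they stand for the 3 classes with this site and their levels are described further on.
Cdh1: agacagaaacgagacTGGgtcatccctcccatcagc
Cdh3: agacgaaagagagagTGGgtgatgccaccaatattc
Cdh6: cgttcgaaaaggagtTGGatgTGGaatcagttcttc
Cdh13: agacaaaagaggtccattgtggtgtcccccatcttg
Cdh1 and Cdh3 have 1 TGG in these 8 codons, at codon 2, and Cdh6 has 2, at codons 2 and 4. Cdh13 has 0, and the 2 7D genes have no match to the cleavage motif. Outside Cdh6, Cdh11 and Cdh16, none of the members' transcripts shared a stretch of 50 bases with a transcript of another gene. In those 3 genes the shared stretches made up 0.123%, 3.23% and 0.348% of the transcript's positions.

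Levels are given in CPM, counts scaled to a common library total after TMM adjustment, and 7 of the 10 cadherins reached 10 CPM in at least 1 line. Cdh4 (R-cadherin, of retina and brain) had 0 counts in every library; the floor of 3 counts used here for a count of 0 is 0.160 to 0.182 CPM, and the exact two-sided 95% Poisson upper limit is 0.196 to 0.224 CPM. Cdh5 (VE-cadherin of endothelium) had 6 counts in all 6 libraries together, with a highest level of 0.174 CPM in KPC490. Cdh11 (OB-cadherin, of mesenchyme and fibroblasts) had 14 counts in all and reached 0.272 CPM in KPC469. None of the differences between neighbouring lines in the order of these 3 genes went beyond counting error.

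**Figure D1:**
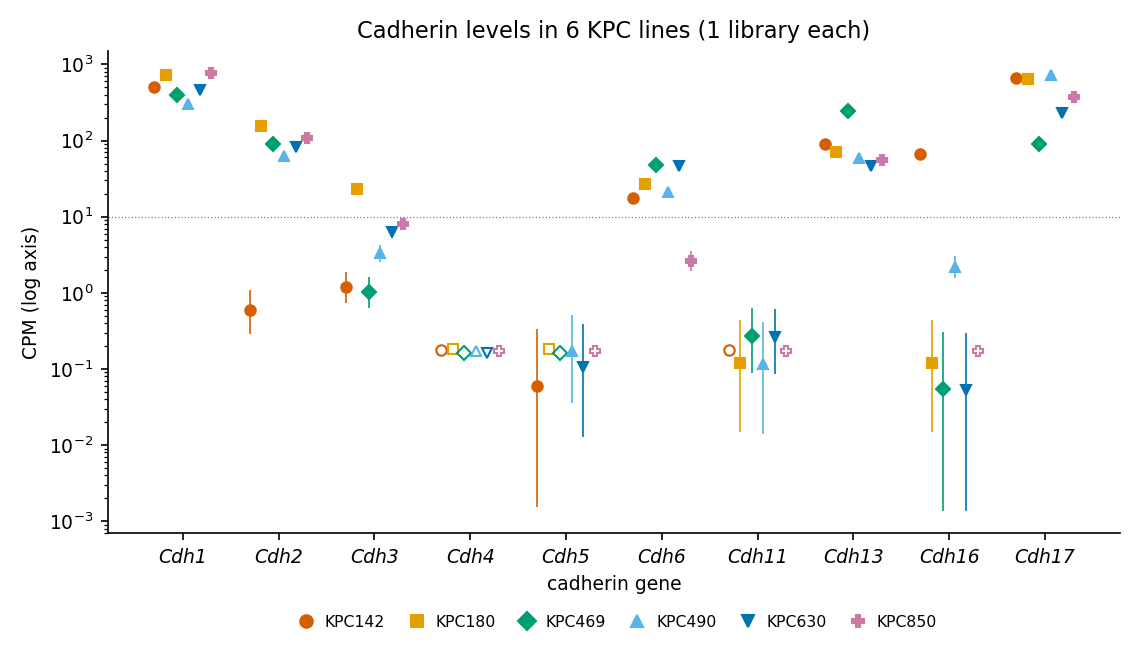
CPM of the 10 cadherins (log axis) in each of the 6 lines, with exact 95% Poisson intervals for counting error only. Open symbols stand at the floor of 3 counts where a line had 0 counts, and the dotted line marks 10 CPM. Cdh1 lies between 298.4 and 767.0 CPM in every line, while Cdh2, Cdh6 and Cdh16 each have 1 line far from the others.

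Among the 7 cadherins with at least 10 CPM in a line, 6 differed by 4-fold or more between the highest and the lowest line, all but Cdh1. Of the 10234 genes at that level, 15.5% did. The median range was 18.4-fold for these 7 cadherins and 1.91-fold for the 10234 genes. Cdh3 and Cdh16 reached 10 CPM in a single line each, so the filter kept them only through their highest line. The count is therefore a description of these genes and not support for a property of cadherins. Cdh16 was the 1 member at least 4-fold above the next line in a single line (1.62% of the 10234 genes), and Cdh2 and Cdh6 were the 2 members at least 4-fold below it (2.58%). On the log2 scale, 1 line stood apart by Dixon's ratio for 2 of the 7, Cdh2 and Cdh6, as it did for 6.69% of the 10234 genes.

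Among type I cadherins, Cdh1 was abundant in all 6 lines and varied least. Its level was 767.0 CPM in KPC850, 724.8 in KPC180, 510.4 in KPC142, 462.4 in KPC630, 399.8 in KPC469 and 298.4 in KPC490. KPC850 and KPC180 were highest and KPC490 lowest, with a ratio of highest to lowest of 2.57 (95% counting interval 2.49 to 2.66), and every step of the order exceeded counting error. Such intervals are exact conditional binomial intervals, cover counting error only, and say nothing of the spread between cultures of a line. Per kb of transcript, Cdh1 stood above 92.7% (KPC490) to 97.6% (KPC850) of the protein-coding genes detected in the same line.

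Cdh2 was nearly silent in KPC142 and present in the other 5 lines. It had 10 counts in KPC142, which is 0.599 CPM, against 156.9 CPM in KPC180, 109.5 in KPC850, 89.1 in KPC469, 82.4 in KPC630 and 62.8 in KPC490. KPC142 lay 104.8-fold below the next line (56.8 to 219.1), and the ratio of highest to lowest was 261.9 (142.2 to 546.8). Without KPC142 that ratio was 2.5. The median of 270 genes of chromosome 18, where Cdh2 lies, was also lowest in KPC142, at -0.26 log2 units relative to each gene's median over the lines. That median was -0.21 in KPC630 and between -0.01 and 0.33 in the other lines. The part of the chromosome level in the Cdh2 level was not tested. In bulk libraries, fewer cells with a transcript and less of it per cell cannot be told apart.

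P-cadherin (Cdh3), a type I cadherin of basal epithelium and of many carcinomas, was highest in KPC180. Its level was 23.5 CPM there, 8.10 in KPC850, 6.34 in KPC630, 3.31 in KPC490, 1.20 in KPC142 and 1.04 in KPC469. The ratio of KPC180 to KPC469 was 22.7 (14.3 to 38.1), and without KPC180 the range was 7.83-fold. KPC850 and KPC630 did not differ beyond counting error, and neither did KPC142 and KPC469. Cdh3 and Cdh1 lie next to each other on chromosome 8 in the annotation with only Gm10073 (at most 0.272 CPM) between them among protein-coding genes. Yet in KPC469 Cdh1 was at 399.8 CPM and Cdh3 at 1.04.

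The median of 578 genes of chromosome 8, where 6 of the members lie, also differed between lines. It stood at 0.34 log2 units in KPC180, 0.22 in KPC142 and 0.19 in KPC469, and at -0.21 in KPC490, -0.22 in KPC630 and -0.25 in KPC850, relative to each gene's median over the lines. KPC180 was thus among the high lines for the chromosome, for Cdh1 and for Cdh3. KPC850 had the lowest chromosome median and the highest Cdh1. The median of 617 genes of chromosome 4, where Cdh17 lies, was 0.52 log2 units in KPC142, -0.26 in KPC469 and between -0.06 and 0.03 in the other lines. The part of the chromosome levels in the members' levels was not tested.

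Cdh6 (K-cadherin, of embryonic kidney and several carcinomas) was the 1 type II member of the list with more than a trace of expression. Its level was 48.4 CPM in KPC469, 47.1 in KPC630, 27.3 in KPC180, 21.3 in KPC490, 17.8 in KPC142 and 2.62 in KPC850. KPC469 and KPC630 did not differ beyond counting error, with a ratio of 1.03 (0.936 to 1.13), and KPC850 was 6.78-fold below the next line (4.95 to 9.50). Without KPC850 the range fell to 2.72-fold. Its neighbour Drosha, a nuclease of miRNA processing, ran from 111.4 to 169.4 CPM over the lines, and its other neighbour Cdh9 reached 3.09 CPM at most.

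T-cadherin (Cdh13), known for binding adiponectin, was expressed in every line and highest in KPC469. It reached 248.0 CPM there, against 89.0 in KPC142, 71.1 in KPC180, 59.7 in KPC490, 55.6 in KPC850 and 47.0 in KPC630. KPC469 was 2.79-fold above KPC142 (2.63 to 2.96), and KPC490 and KPC850 did not differ beyond counting error. Without KPC469 the range was 1.89-fold. Its neighbours Mphosph6 and Hsbp1 stood at 28.1 and 102.5 CPM in KPC469, inside their range over the other lines. The annotation has 2 antisense genes within Cdh13 and 1 within Cdh2, and whether strand was used in counting is not given in the sources used here.

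Among the 7D cadherins, Cdh17 (LI-cadherin of intestine and liver) was one of the most abundant cadherins of the set. Its level was 723.3 CPM in KPC490, 664.9 in KPC142, 635.0 in KPC180, 378.1 in KPC850, 233.1 in KPC630 and 89.4 in KPC469. Every step of this order exceeded counting error, and the ratio of KPC490 to KPC469 was 8.09 (7.69 to 8.53). Without KPC469 the range was 3.10-fold, under the 4-fold used above. Both neighbours of Cdh17 were also lowest in KPC469: Gem had 13.5 CPM there and 16.4 to 32.2 in the other lines, and Pdp1 30.2 and 38.8 to 56.3. KPC469 was the lowest line for the chromosome median as well, and the part of these in the Cdh17 level was not tested. Per kb, Cdh17 stood above 98.0% of detected protein-coding genes in KPC490 and above 79.5% in KPC469.

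Cdh16 (Ksp-cadherin of kidney tubules) belonged almost wholly to KPC142. It had 1128 counts in KPC142, which is 67.6 CPM, 38 counts (2.21 CPM) in KPC490, 2 in KPC180, 1 each in KPC469 and KPC630, and 0 in KPC850. KPC142 was 30.6-fold above KPC490 (22.2 to 43.5) and 386.5-fold above KPC850 with the latter set to the floor of 3 counts. With the 0 counts of KPC850 as they are, the lower limit of the counting interval for that ratio was 313.8. KPC490 was in turn 18.2-fold above KPC180 (4.70 to 155.6). Without KPC142 the gene did not reach 10 CPM in any line. Its neighbours Pdp2 and Rrad had 28.4 and 5.09 CPM in KPC142. Rrad was highest there, with 0.758 to 3.99 CPM in the other lines, and Pdp2 lay inside its range over them.

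To describe the mix within a line, CPM was divided by the length of each gene's longest protein-coding transcript, since levels of different genes can only be set side by side per length. The sum over the 10 genes was 407.0 CPM per kb in KPC180, 356.5 in KPC142, 321.8 in KPC850, 309.2 in KPC490, 208.5 in KPC630 and 206.2 in KPC469. Cdh17 led the mix in 3 lines, with 67.6% of the sum in KPC490, 53.9% in KPC142 and 45.1% in KPC180. Cdh1 led in the other 3, with 53.8% in KPC850, 50.1% in KPC630 and 43.8% in KPC469. The order of the 2 in KPC180 depended on the length used: there Cdh1 came to 42.6% and Cdh17 to 39.9% by coding length, and to 42.95% and 42.6% by the median transcript length. In the other 5 lines the leading cadherin was the same by all 3 lengths.

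KPC469 had the most distinct second component. Cdh13 made up 31.8% of its summed level per kb, against 4.56% to 6.60% in the other lines, and Cdh17 12.5%, against 32.3% or more. In KPC142 Cdh16 held 6.49% (22.9% by the median transcript length, which is 639 bases for Cdh16) and Cdh2 0.0347%, whereas in the other 5 lines Cdh2 held 4.19% to 8.93% and Cdh16 at most 0.244% (1.05% in KPC490 by the median transcript length). The type II share, almost all Cdh6, was 2.90% in KPC469, 2.80% in KPC630 and 0.0998% in KPC850. By coding length, which is 2370 bases for Cdh6 against 8167 for its longest transcript, the Cdh6 share was 5.73% in KPC469, 5.79% in KPC630 and 0.216% in KPC850. Cdh3 stayed at or below 1.32% (KPC180) in every line.

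**Figure D2:**
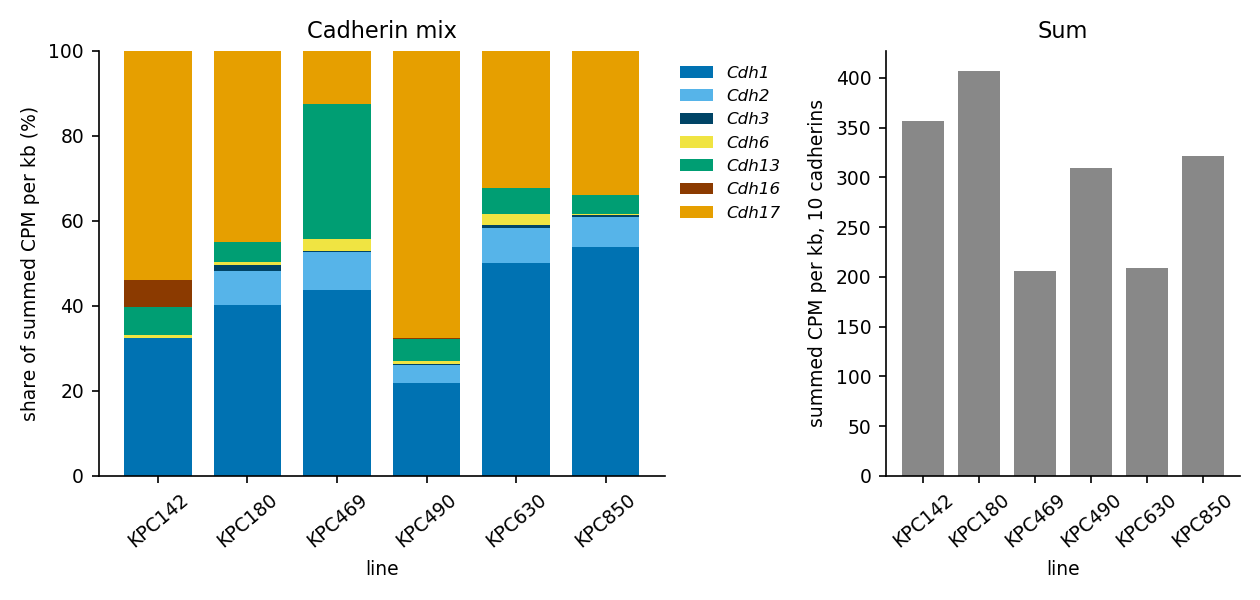
Left, the share (%) of each cadherin in the summed CPM per kb of the 10 genes, by line; Cdh4, Cdh5 and Cdh11 are too low to be seen. Right, that sum in CPM per kb. Cdh17 takes from 12.5% (KPC469) to 67.6% (KPC490) of the sum, and the green Cdh13 segment is widest in KPC469.

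The ratio of E-cadherin to N-cadherin, the pair most often used to place cells between epithelial and mesenchymal states, was above 1 in all 6 lines. Per kb, Cdh1 exceeded Cdh2 4.90-fold in KPC469 (95% counting interval 4.65 to 5.18), 5.05-fold in KPC180 (4.84 to 5.27), 5.20-fold in KPC490 (4.86 to 5.55), 6.14-fold in KPC630 (5.81 to 6.48) and 7.66-fold in KPC850 (7.29 to 8.04). In KPC142 the ratio was 931.2 (506.1 to 1943). The intervals of KPC469, KPC180 and KPC490 overlapped. Of Cdh1 over Cdh17 the ratio per kb ran from 0.322 in KPC490 (0.312 to 0.333) to 3.496 in KPC469 (3.31 to 3.69), so KPC469 and KPC490, close in the first ratio, were at opposite ends of the second.

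**Figure D3:**
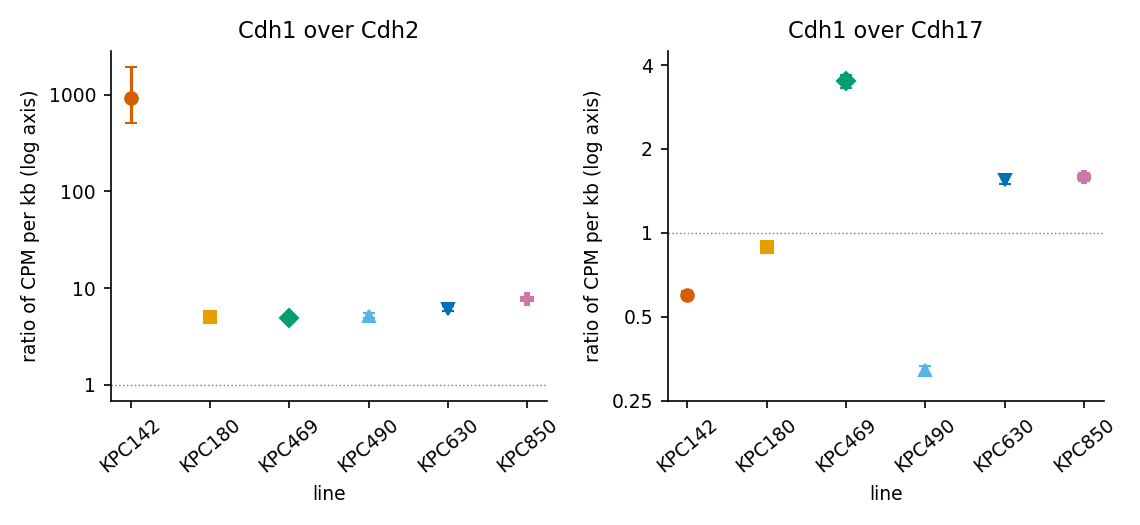
Ratio of CPM per kb (log axes) of Cdh1 to Cdh2 (left) and of Cdh1 to Cdh17 (right) in each line, with exact conditional binomial 95% intervals for counting error only; the dotted lines mark 1. In the left panel 5 lines lie between 4.90 and 7.66 and KPC142 at 931.2, and in the right panel 3 lines lie on each side of 1, KPC180 at 0.892 being the line that crosses to the other side by median or coding length.

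Catenins and the linkers that join cadherins to actin were counted in the same way. Of 12 listed catenins and junction linkers, 11 were matched (all but Arvcf) and 8 reached 10 CPM in a line. Of these 8, 0 varied by 4-fold or more, against 15.5% of all genes at that level. With so few genes, 0 is near that share. Their median range was 0.78 log2 units, against 0.93 for all such genes. The most variable was Ctnnal1, an alpha-catenin-like gene, with 18.2 CPM in KPC850 and 58.0 in KPC490. Vinculin (Vcl) ran from 212.6 CPM in KPC850 to 558.0 in KPC469 and plakoglobin (Jup) from 130.9 in KPC180 to 266.0 in KPC850. Of 12 further type I and type II cadherins, only Cdh24 reached 10 CPM, with 4.85 CPM in KPC142 and 12.1 in KPC180, and 9 stayed under 1 CPM in every line.

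Of 13 desmosome genes, 6 reached 10 CPM in a line and 4 varied by at least 4-fold, where 15.5% of all genes did; no difference between gene groups was tested. Dsc2 and Dsg2, desmosomal cadherins, were lowest in KPC142, at 0.3595 and 6.11 CPM, and highest in KPC630, at 29.3 and 65.5. Pkp1, a desmosomal plaque protein, ran from 0.599 CPM in KPC142 to 55.5 in KPC469. Dsp, the most abundant of the 13, was at 236.6 CPM in KPC142, lowest in KPC469 (77.6) and highest in KPC850 (515.6). The 13 genes summed to 188.1 CPM in KPC469, the lowest, and 655.2 in KPC850, the highest. The nearest protein-coding gene on one side of Cdh2, Dsc3, had at most 0.0599 CPM. Of 4 nectins, adhesion proteins that assemble beside cadherins, 3 reached 10 CPM and 2 varied as much. These were Nectin1 (2.02 CPM in KPC469, 16.5 in KPC180) and Nectin2 (20.7 in KPC142, 101.5 in KPC180), while Nectin3 ran from 13.96 to 32.6. Nectin1 reached 10 CPM in KPC180 alone, so the filter kept it only through its highest line.

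**Figure D4:**
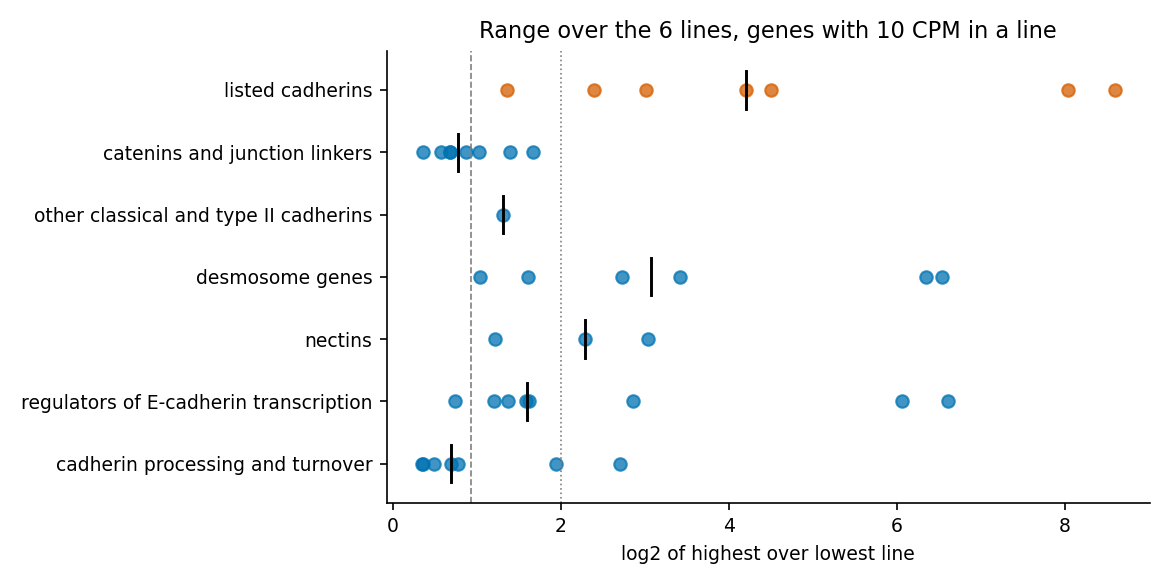
Range over the 6 lines (log2 of the highest over the lowest line, a line at 0 set to 3 counts) of each gene with 10 CPM in a line, by list; black bars are medians, the dashed line the median of all such genes (0.93) and the dotted line 4-fold. The 7 cadherins have a median of 4.21 and the 8 catenins and linkers, all left of the dotted line, of 0.78.

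Of 16 listed regulators of E-cadherin transcription, 8 reached 10 CPM in a line and 3 differed at least 4-fold between lines, beside 15.5% of all genes. Twist1, a repressor, was at 42.4 CPM in KPC142 and 0.436 in KPC469, Twist2 at 0.175 in KPC850 and 11.7 in KPC490, and Zeb2, another repressor, at 5.33 in KPC142 and 38.8 in KPC469. Twist2 reached 10 CPM in KPC490 alone, so the filter kept it only through its highest line. Twist1 was highest, and Zeb2 lowest, in the line with 10 counts of Cdh2. Snai1 stayed at or below 1.20 CPM in every line, while Snai2 ran from 3.89 to 11.7 CPM and Zeb1 from 40.6 to 67.8.

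Among regulators of the 7D cadherins, Cdx2, an intestinal factor known to act on Cdh17, was lowest in KPC180 (7.83 CPM) and highest in KPC490 (103.3), the line with the most Cdh17. In KPC180, with 635.0 CPM of Cdh17, Cdx2 was at 7.83 CPM, about as low as in KPC469 (8.99), which had the least Cdh17. Of 10 genes that process or turn over cadherins, 7 reached 10 CPM and 1, the membrane protease gene Mmp14, varied by at least 4-fold, from 31.9 CPM in KPC142 to 208.8 in KPC630; 1 of 7 is near the 15.5% of all genes. Psen2 (7.13 to 27.5 CPM) and Cbll1 (12.9 to 22.2) came next.

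The genes with the most similar profiles were sought among 10189 other named genes with 10 CPM in a line, by the root mean square distance between log2 CPM profiles after each profile's own mean was subtracted. For Cdh2 they were Timp3, a metalloproteinase inhibitor (distance 0.42 log2 units), Cpne8 (0.52) and the planar polarity gene Vangl2 (0.68). Timp3 had 0.240 CPM in KPC142 and 29.3 to 120.3 CPM in the other lines. For Cdh3 they were Scel, a gene of the epidermal envelope (0.36), the aspartic protease gene Ctse (0.43) and the syndecan gene Sdc2 (0.43). All 3 were highest in KPC180, where Ctse reached 436.6 CPM.

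For Cdh6 the closest were Ripor2 (0.44), Atp8b2 (0.44) and Fgd1 (0.52), all lowest in KPC850. For Cdh13, which had the smallest range of the members searched, the distances were smaller, and the distance is not scaled to a gene's range. Its nearest were Oaf (0.15), the adhesion receptor gene Adgrg6 (0.17) and the fatty acid transporter gene Slc27a1 (0.17). All were highest in KPC469, with 141.8 CPM of Adgrg6 there and 24.8 to 46.3 elsewhere. Cdh17 was nearest to Mvd (0.28), an enzyme of cholesterol synthesis, the Wnt antagonist gene Rnf43 (0.36) and Nsdhl (0.41), another enzyme of cholesterol synthesis. Mvd was lowest in KPC469 and reached 105.3 CPM in KPC490. Cdh16 had no close match: the nearest were the Y-linked Eif2s3y (1.49) and Ddx3y (1.51), which had counts in KPC142 alone, and Lrrk2 (1.65), with 14.9 CPM in KPC142 and 21.4 in KPC490. By Pearson r over the 6 lines, 1 of the 3 genes stayed among the top 3 for Cdh2, Cdh13 and Cdh17 each, and 0 for the other 3 members.

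**Figure D5:**
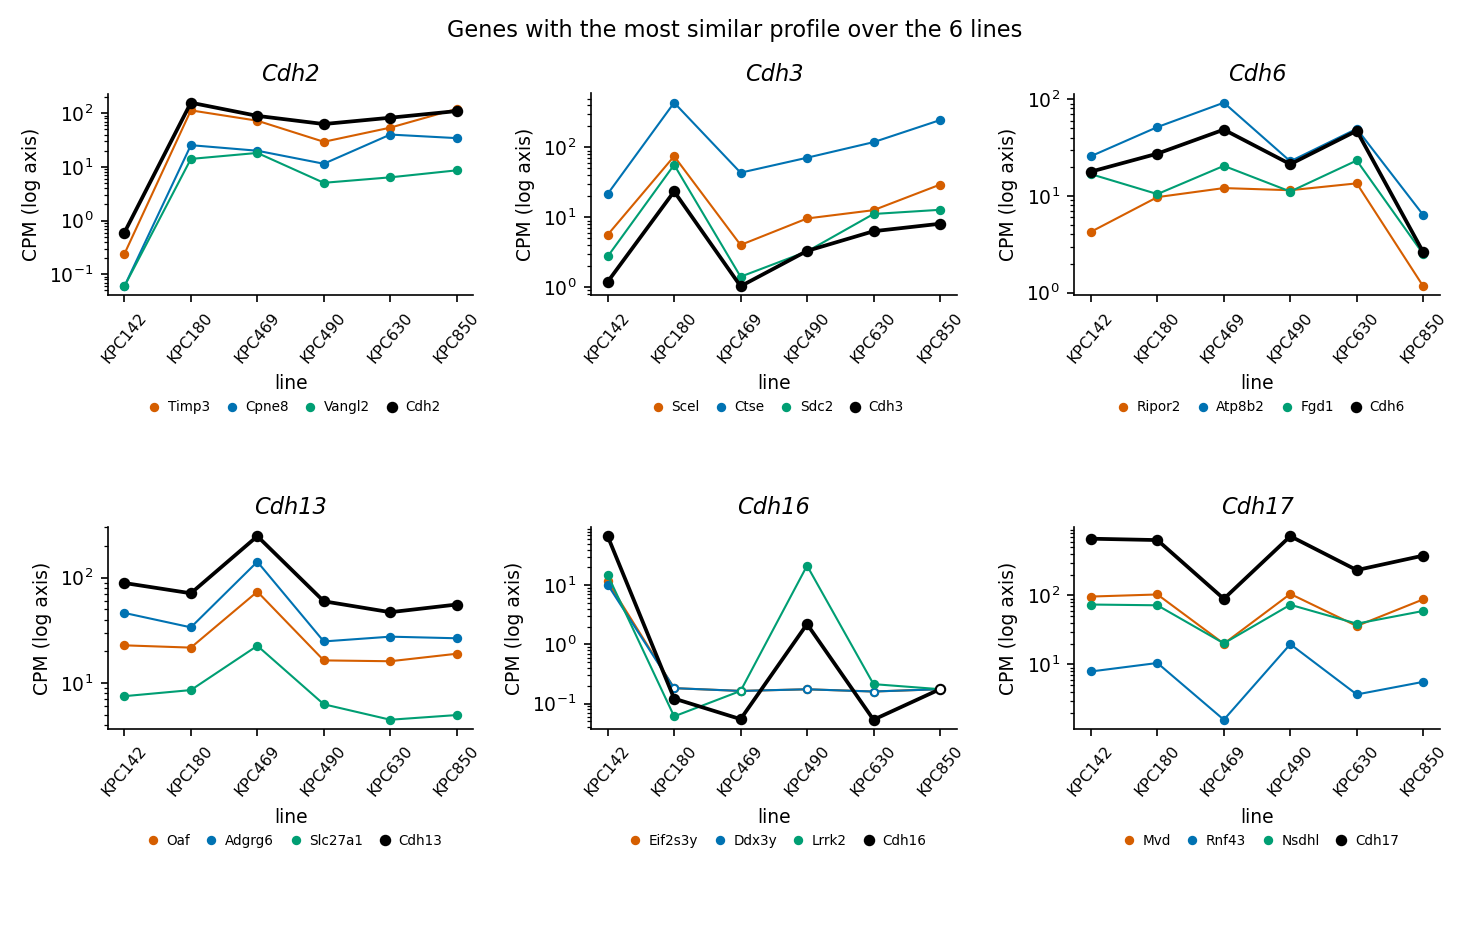
CPM (log axes) over the 6 lines of the 6 cadherins with a range of 4-fold or more (black) and of the 3 genes with the smallest distance to each (colours); open symbols stand at the floor of 3 counts for 0 counts, and lines join points for reading only. The curves run nearly parallel for Cdh13 and part widely for Cdh16.

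Markers of the labelled cell type and of other cells were set beside these levels. The 10 ductal epithelial genes summed to 2676 CPM in KPC469, the lowest, and 11822 in KPC850. Of these, 8 reached 10 CPM in a line and 6 varied by at least 4-fold, where 15.5% of all genes at that level did. Among the 6 were Krt7 (140.5 CPM in KPC469, 2572 in KPC630) and Muc1 (20.2 in KPC142, 264.2 in KPC850). Epcam, also among the 6, reached 10 CPM in KPC630 alone, so the filter kept it only through its highest line. KPC469, with the largest Cdh13 share and the smallest Cdh17 share, was thus lowest in the ductal sum, which was mostly keratins. Gene by gene, Krt7, Krt8, Krt18, Cldn4 and Tspan8 were lowest in KPC469. Cldn4 was near the floor there, at 0.163 CPM against 0.233 in KPC850. Cldn7, Sox9 and Muc1 were lowest in KPC142, and Krt19 and Epcam in KPC180. Sox9 was highest in KPC469, at 43.4 CPM against 4.55 in KPC142. Keratins were present in every line, with Krt8 from 843.3 to 4180 CPM and Krt19 from 837.2 to 2755, but Epcam reached 10.5 CPM at most, Cldn7 6.39 and Cldn4 3.35. Endothelial Pecam1, Tek, Tie1, Cldn5 and Emcn stayed at or below 0.180 CPM, beside the traces of Cdh5. The 10 endothelial genes summed to 5.45 (KPC469) to 46.1 CPM (KPC142), with Flt1 at 3.65 and 43.3 CPM in those lines. Fibroblast genes summed to 0.659 (KPC142) to 7.30 CPM (KPC469), with Dcn, Lum and Thy1 at 0 counts in every library, beside the traces of Cdh11. The highest of them were Pdgfrb (3.05 CPM) and Pdgfra (2.23) in KPC469 and Col1a1 (2.66) in KPC630. The 10 immune genes summed to at most 4.26 CPM (KPC630).

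The 10 kidney tubule genes, listed because of Cdh16, summed to 389.7 CPM in KPC142, the highest, and to 20.1 CPM in KPC490, the lowest; these are also the 2 lines with the most Cdh16. Of these, 5 stayed under 1 CPM in every line, and among the 5 Umod, Slc22a6 and Slc34a1 had 0 counts throughout. Aqp1, at 301.9 CPM in KPC142 and 9.99 to 158.5 in the others, and Cubn, at 77.3 and 1.96 to 29.9, made up most of the sum, and Pax2 was at 7.61 CPM in KPC142 and at most 0.327 elsewhere. The 10 intestinal genes, listed because of Cdh17, summed to 140.7 CPM in KPC180 and 1040 in KPC490, with Muc2 at most 0.523 CPM and Cdx1 and Guca2a at 0 counts. Alpi was highest in KPC180 (15.5 CPM) and Lgals4 in KPC490 (850.2). Vil1 was present in every line, from 21.2 CPM in KPC469 to 134.8 in KPC142. Neural and Schwann cell genes, listed because of Cdh2 and Cdh4, summed to 19.9 CPM in KPC850 and 123.0 in KPC630, led by Ncam1 (0 counts in KPC469, 45.3 CPM in KPC630) and Map2 (62.1 CPM in KPC630), with Sox10 at 0 counts. The part of other cell types in the cadherin levels was not tested.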

How the data were processed

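One deposited table gives expected counts, the estimates the authors obtained per Ensembl gene, for 6 libraries of 1 line each. Per the labels' protocols, a stranded mRNA kit was used. RSEM 1.3.3, Trimmomatic 0.36 and STAR 2.7.10b are named, with the build GRCm39, in the submitters' processing notes; the annotation is not given in the sources used here. Library totals ran from 16471558 to 18701274 counts. Expected counts were rounded to whole numbers; no member had a fraction in any library. TMM factors (0.986 to 1.01) came from edgeR 4.0.16 in R 4.3.3 on the 11531 genes kept by filterByExpr, and log2 CPM used a prior count of 2. Each line has 1 library, so no line was tested against another with the spread between replicates; Dixon's ratio was computed over the 6 lines as 1 set.

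Symbols matched 52029 of 56953 genes (GENCODE M21, built on GRCm38, used for names, transcript lengths, chromosomes and gene order, with no coordinates given). Genes with 10 CPM in a line were counted as variable where the highest line was at least 4-fold above the lowest, a line at 0 being set to 3 counts. Named genes were all members, up to 3 genes of each list with the largest range, the 3 nearest profiles, and nearest neighbours. Outside this rule, Snai1, Snai2, Zeb1, Dsp and some marker genes were picked after their values were seen. These markers were Krt8, Krt18, Krt19, Cldn4, Cldn7, Sox9, Tspan8, Pecam1, Tek, Tie1, Cldn5, Emcn, Dcn, Lum, Thy1, Umod, Slc22a6, Slc34a1, Pax2, Vil1, Muc2, Cdx1, Guca2a and Sox10. They also included Vwf, Esam, Kdr, Egfl7, Pdgfra, Pdgfrb and Col1a1. The members and lists were chosen with earlier results of these data known. The calculations were tested on simulated data. Alternatives were another normalization (DESeq2 1.42.0 size factors or library totals), filter, fold, transcript length and prior count, and leaving out each line. Some genes of the list of 7D cadherin regulators are not reported here.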

Additional observations from a re-analysis of the deposited data

Results flagged for a closer look

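The 6 lines were taken as 1 set and the gap of the most extreme line on the log2 CPM scale was divided by the whole range, and set against Dixon's 95% critical value for 6 values. For Cdh2 the gap below KPC142 came to 0.830 of the range (0.599 CPM against 62.8 in the next line). For Cdh6 the gap below KPC850 came to 0.653 (2.62 CPM against 17.8). Of the 10234 genes with 10 CPM in a line, 6.69% had a line apart in this way, against about 1 in 20 groups by chance, and 2 of the 7 cadherins at that level did. Cdh13, high in KPC469, fell short of that value at 0.616.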

How the results depend on the processing

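The 6 cadherins with a range of 4-fold or more kept that range under both other normalizations, at 1 CPM in a line and with no filter. Over all genes, 1590 of 10236 had it by library totals and 1586 of 10231 by DESeq2 size factors. At 1 CPM in a line 3775 of 13935 genes did, and with no filter 5079 of 24900. filterByExpr left out Cdh16, so that 0 members were 4-fold above the next line, beside 52 of 11531 genes. At 2-fold there were 3, Cdh3, Cdh13 and Cdh16, beside 522 of 10234 genes. Members below the next line by 8-fold numbered 1 (Cdh2), beside 131 of 10234 genes. By 2-fold they numbered 3 (Cdh2, Cdh6 and Cdh17), beside 743 of 10234 genes. With each line left out in turn, members with a 4-fold range numbered 4 (without KPC142 or KPC469) to 6, members above the next line numbered 0 (without KPC142) to 1 and members below it 1 (without KPC142 or KPC850) to 3 (without KPC630, adding Cdh17). Over all genes, a 4-fold range was found in 1158 of 10062 (without KPC469) to 1455 of 10159 (without KPC630). Genes above the next line numbered 119 (without KPC469) to 204 (without KPC630), and genes below it 237 (without KPC469) to 298 (without KPC142 or KPC850). By coding length the ratio of Cdh1 to Cdh2 was 4.73 in KPC180, 4.60 in KPC469, 5.75 in KPC630 and 7.18 in KPC850. On the CPM scale, lines stood apart for Cdh3, Cdh13 and Cdh16 in place of Cdh2 and Cdh6, beside 1097 of 10234 genes. Over all settings, 10 of 53 values of the main counts and ratios moved, and 58 of 141 other values. Of the latter, 42 were among the 60 shares recomputed by another transcript length. The shares therefore hold for the longest transcript only. A count was called moved by the size of its change alone, not by which members it held. The other members on the CPM scale, and the 4 members without KPC142 or KPC469, were therefore not among the moved values. Depth limits Cdh2 in KPC142 (10 counts), Cdh16 outside KPC142, and Cdh4, Cdh5 and Cdh11 everywhere. No paired analysis was possible because each line has 1 library.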
